A study of Macaca mulatta with 81 samples.

Results

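AHSP, ALAS2, HEMGN and EPB42, 4 genes that are switched on as a blood progenitor becomes a red cell, were measured in T cells sorted on CD3 from the blood of rhesus macaques. Each gene was read through the probe sets that the gene table of the array assigns to it alone, and where it had several, through the one with the highest mean over all 81 arrays. These 4 genes are part of 14133 genes read in this way and of 11807 that were tested. AHSP and EPB42 had 1 probe set each, and ALAS2 and HEMGN had 2.

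The arrays came from 34 samples of healthy, untransplanted animals (Healthy.Control) and from 47 samples of 27 animals after hematopoietic cell transplant, in 15 groups. Autologous recipients, who got their own cells back and no prophylaxis against graft-versus-host disease, were sampled at day 14 (Auto.D14, n = 3) and day 36 (Auto.D36, n = 3). All other recipients had an allogeneic graft. NoRx.F (n = 4) had no prophylaxis, Siro.F (n = 4) had Siro, taken here to be sirolimus, and Bela.F (n = 3) had Bela, taken to be belatacept. Tac.Mtx, taken to be tacrolimus with methotrexate, was sampled at day 14 (n = 3), day 30 (n = 2) and at the end (F, n = 3). Bela.Siro was sampled at day 14 (n = 3), day 29 or 30 (n = 3) and at the end (n = 2), FR104, an antibody fragment against CD28, at day 14 (n = 3) and at the end (n = 3), and FR104.Siro in a D14 group that spans days 14, 14, 22 and 34 (n = 4) and at the end (n = 4). F is a final sample for which the labels give no day. Replicates are different animals and carry the animal's number, and 11 animals are represented in Healthy.Control as well as in a transplant group. The labels give neither the age of the animals nor the conditioning before the transplant, and the small number of arrays in a group limits the precision.

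Red cells arise in the bone marrow from progenitors that commit under the transcription factors GATA1 and KLF1, fill with hemoglobin, expel their nucleus and leave for the blood as reticulocytes. The members cover separate steps of this path. HEMGN (hemogen) is a nuclear protein of blood progenitors and erythroblasts, ALAS2 is the erythroid enzyme for the first step of heme synthesis, AHSP is the chaperone that holds free alpha globin, and EPB42 (protein 4.2) ties the membrane skeleton to the anion exchanger. None of these steps is known as work of a mature T cell. In bulk RNA of this kind, more cells of a type and more of its RNA per cell cannot be told apart.

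The members stood apart from the healthy controls on few arrays. The sample of animal 21 in Tac.Mtx.D14 was the highest of all 81 arrays for each of the 4 genes, and for 1.51% of all genes tested. AHSP was tested only through arrays on which it was high, this one among them. It is therefore not read against this share or those given below. The final sample of the same animal and the final FR104 sample of animal 24 followed for AHSP and ALAS2. Of the 47 transplant arrays, 43 had no member above the highest of the 34 healthy arrays, 1 had 1 member above it, 2 had 2 and 1 had all 4. For comparison, a transplant array had between 4.34% and 21.4% of all genes tested above that healthy maximum, with a median of 11.9%. The array with all 4 members above, animal 21 in Tac.Mtx.D14, had 11.3%, those with 2, animal 21 in Tac.Mtx.F and animal 24 in FR104.F, had 16.1% and 6.6%, and the one with 1, animal 26 in FR104.Siro.D14, had 13.7%.

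**Figure D1:**
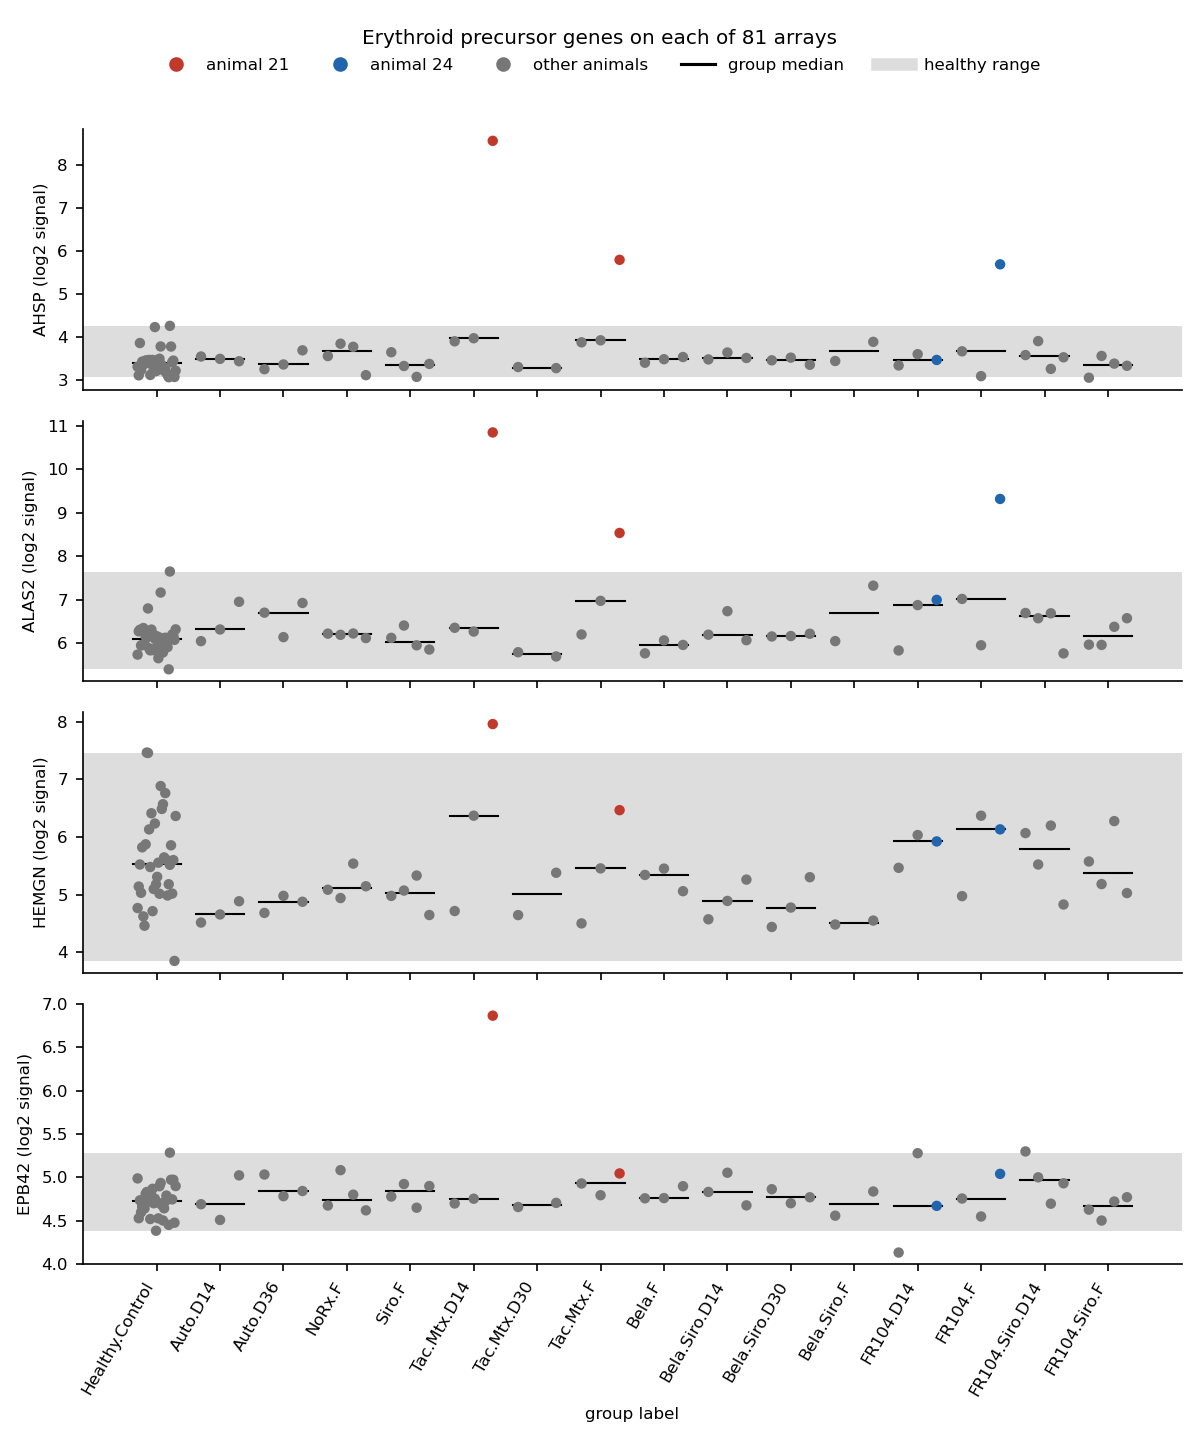
Log2 signal (vertical axes) of AHSP, ALAS2, HEMGN and EPB42 on each of the 81 arrays, by group label (horizontal axis). Each point is 1 array, black lines are group medians, the grey band is the range of the 34 healthy control arrays, and animals 21 and 24 are coloured in their transplant groups. Animal 21 in Tac.Mtx.D14 lies above the band in all panels, at 8.56 for AHSP and 10.85 for ALAS2.

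HEMGN, the earliest member in this path, was the most variable of the 4 in healthy animals. Its log2 signal in Healthy.Control ran from 3.85 over a median of 5.54 to 7.46, with an SD of 0.83 (n = 34). In Tac.Mtx.D14 it was 7.96 in animal 21, 6.37 in animal 20 and 4.72 in animal 19, so that 1 of 3 arrays lay above the healthy range and by less than the healthy SD. In Tac.Mtx.D30 it was 5.38 and 4.65 in animals 20 and 19, and in Tac.Mtx.F it was 6.46, 5.46 and 4.50 in animals 21, 20 and 19. The order of the animals was the same at each of these times, and animal 21 had no array at day 30. Ranked by group mean, Tac.Mtx.D14 (6.35 ± 1.62, SD, n = 3) came first, followed by FR104.F (5.82 ± 0.75), FR104.D14 (5.81 ± 0.30), FR104.Siro.D14 (5.65 ± 0.62) and Healthy.Control (5.64 ± 0.83). Auto.D14 (4.69 ± 0.19) and Bela.Siro.F (4.52 ± 0.05, n = 2) came last. Neighbours in this order differed by less than their spread, and none of the 15 transplant groups passed the test against healthy controls (limma, group and batch as terms, Benjamini-Hochberg adjustment over all genes). The lowest fitted difference was -1.14 ± 0.55 (SE) in Bela.Siro.F, with an adjusted p of 0.297, and the highest 0.69 ± 0.47 in Tac.Mtx.D14, with an adjusted p of 0.558.

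ALAS2, which opens heme synthesis, held to a narrower healthy range apart from a few arrays. In Healthy.Control it ran from 5.40 over 6.11 to 7.65. In Tac.Mtx.D14 it was 10.85 in animal 21, 6.27 in animal 20 and 6.36 in animal 19. The first of these is 26.8 times the healthy median, and the other two lay close to it. In Tac.Mtx.F it was 8.54, 6.98 and 6.20 in animals 21, 20 and 19, and at day 30 it was 5.70 and 5.80 in animals 20 and 19. In FR104.D14 it was 7.0, 5.84 and 6.88 in animals 24, 22 and 23, and in FR104.F 9.32, 7.02 and 5.96 in the same animals. Animal 24 thus exceeded the healthy range in its final sample and not in its day 14 sample. Group means fell from Tac.Mtx.D14 (7.83 ± 2.62, SD, n = 3) over FR104.F (7.43 ± 1.72) and Tac.Mtx.F (7.24 ± 1.19) to Bela.Siro.F (6.69 ± 0.90, n = 2), and the other 12 groups lay between 5.75 in Tac.Mtx.D30 and 6.59 in Auto.D36, with Healthy.Control at 6.13 ± 0.41. The 3 leading groups each owe their place to 1 array and do not differ beyond their spread.

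AHSP was close to the floor of the array in most samples. It exceeded 4.65, the level a gene had to pass on 2 arrays to be tested, on 3 of 81 arrays, so it was tested only through the arrays on which it was high. In Healthy.Control it ran from 3.06 over 3.38 to 4.25. In Tac.Mtx.D14 it was 8.56 in animal 21, and 3.97 and 3.89 in animals 20 and 19. In Tac.Mtx.F it was 5.79, 3.92 and 3.87 in animals 21, 20 and 19, and in Tac.Mtx.D30 3.27 and 3.29 in animals 20 and 19. In FR104.D14 it was 3.46, 3.33 and 3.6 in animals 24, 22 and 23, and in FR104.F 5.69, 3.66 and 3.08. The order of the group means was Tac.Mtx.D14 (5.47 ± 2.67, SD, n = 3), Tac.Mtx.F (4.53 ± 1.10) and FR104.F (4.14 ± 1.37), and the remaining 13 groups lay between 3.28 and 3.66, with Healthy.Control at 3.40. Again 1 array in each of the first 3 groups lay outside the healthy range, and these groups overlap with the others in their remaining arrays.

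EPB42, a protein of the finished membrane skeleton, moved over a narrower range. In Healthy.Control it ran from 4.38 over 4.73 to 5.28. In Tac.Mtx.D14 it was 6.87 in animal 21, 4.75 in animal 20 and 4.70 in animal 19, and in Tac.Mtx.F 5.04, 4.79 and 4.93. In contrast to AHSP and ALAS2, the final sample of animal 21 lay within the healthy range, and so did the final sample of animal 24 (5.04). The only other array above the healthy range was that of animal 26 in FR104.Siro.D14, at 5.3, and animal 22 in FR104.D14 was below it, at 4.13. After Tac.Mtx.D14 (5.44 ± 1.24, SD, n = 3) the group means ran without a gap from 4.98 ± 0.25 (n = 4) in FR104.Siro.D14 to 4.65 ± 0.12 (n = 4) in FR104.Siro.F, and neighbours did not differ beyond their spread.

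Against healthy controls, Tac.Mtx.D14 was the group in which most members passed the test. AHSP was higher by 2.07 ± 0.39 (SE, log2, adjusted p = 0.000972), ALAS2 by 1.69 ± 0.45 (adjusted p = 0.0306) and EPB42 by 0.71 ± 0.19 (adjusted p = 0.0367), in the limma fit with 3 arrays against 34. Of all genes tested, 1.4% were called higher in this comparison and 1.47% in either direction. Since AHSP was tested through the arrays on which it was high, its call is not read against these shares. The calls rest on animal 21. Without it, AHSP was at 0.53 (adjusted p = 0.612), ALAS2 at 0.18 (adjusted p = 0.941), EPB42 at -0.01 and HEMGN at -0.11, and none of the 4 passed, while 0.339% of all genes still did. When the 2 probe sets of ALAS2 were averaged, its difference was 0.82 with an adjusted p of 0.0510.

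In Tac.Mtx.F, AHSP was higher than in healthy controls by 1.12 ± 0.39 (limma, adjusted p = 0.0415), the 1 member of 4 that was called, where 14.1% of all genes were called and 10.7% were higher. AHSP was tested through 3 high arrays, 1 of them in this group, so its call is not read against these shares. The difference was 0.49 (adjusted p = 0.274) without animal 21, and without the array of animal 20 it was 1.43 with an adjusted p of 0.0622. ALAS2 was at 1.10 ± 0.45 (adjusted p = 0.0856), EPB42 at 0.19 and HEMGN at -0.18. In FR104.F, AHSP was at 0.74 ± 0.43 (adjusted p = 0.305) and ALAS2 at 1.30 ± 0.49 (adjusted p = 0.0757), both short of the threshold, where 10.7% of all genes were called. With animal 21 left out of the fit, the same 2 differences had an SE of 0.24 for AHSP and 0.35 for ALAS2 and passed, with an adjusted p of 0.0400 for AHSP and 0.00914 for ALAS2. AHSP was kept for testing through the 2 arrays of animal 21 and that of animal 24 in FR104.F. Its call in this fit is therefore not read as a result. Without the array of animal 24 in FR104.F the 2 differences were -0.04 and 0.36 and did not pass. In the other 12 groups no member passed. The share of all genes called there was 4.4% in Auto.D14, 16.7% in Auto.D36, 35.4% in NoRx.F, 14.6% in Siro.F, 17.6% in Bela.F, 3.46% in Tac.Mtx.D30, 2.52%, 7.18% and 2.84% in Bela.Siro.D14, D30 and F, 5.39% in FR104.D14, and 18.2% and 10.1% in FR104.Siro.D14 and F. Over the 15 groups, 7 of 60 member tests had an unadjusted p under 0.05 and 4 were called. Both counts include AHSP in Tac.Mtx.D14 and in Tac.Mtx.F, which was tested through 3 high arrays, so they are not read as a result. All these comparisons share the 34 healthy arrays.

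The question of early against late samples was put to the 5 regimens that have a D14 group. Averaged with equal weight, the 5 D14 groups did not differ from healthy controls at the threshold in any member, while 17.3% of all genes did (15.3% without animal 21). AHSP was at 0.50 ± 0.22 (limma, adjusted p = 0.111), ALAS2 at 0.59 ± 0.26 (adjusted p = 0.0986), EPB42 at 0.21 ± 0.11 (adjusted p = 0.188) and HEMGN at -0.16 ± 0.27 (adjusted p = 0.703). Without animal 21 the first 3 shrank to 0.19, 0.29 and 0.06. Without animal 20 or 19 in Tac.Mtx.D14, which gives animal 21 more weight, AHSP reached 0.65 (adjusted p = 0.0302) and 0.66 (adjusted p = 0.0220), and ALAS2 0.75 (adjusted p = 0.0322) and 0.74 (adjusted p = 0.0297), and without animal 19 EPB42 reached 0.28 (adjusted p = 0.0499). Within batch 3, which holds Tac.Mtx and Bela.Siro, AHSP was at 1.10 (adjusted p = 0.115), and within batch 4, which holds Auto, FR104 and FR104.Siro, at 0.10 (adjusted p = 0.845).

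From D14 to the last sample (D36 in Auto, F in the others) no member passed either, beside 2.5% of all genes (295 genes). When the animal was added as a block, 895 genes passed with a random and 0 with a fixed term, and no member was called in either fit. The mean changes were -0.09 ± 0.22 for AHSP (limma, adjusted p = 0.844), 0.11 ± 0.25 for ALAS2 (adjusted p = 0.822), -0.25 ± 0.27 for HEMGN (adjusted p = 0.608) and -0.15 ± 0.11 for EPB42 (adjusted p = 0.415). For AHSP and ALAS2 the sign of this mean depended on single arrays, since the mean change of AHSP was 0.22 without animal 21 in Tac.Mtx.D14 and that of ALAS2 -0.08 without animal 24 in FR104.F. None of the 7 comparisons of a later group with the D14 group of its own regimen called a member, while 5 of the 28 tests had an unadjusted p under 0.05, 4 of them in Tac.Mtx.D30 against Tac.Mtx.D14. Of all genes 0.974% were called in Auto.D36, 0.00847% in Bela.Siro.D30, 0.0508% in Bela.Siro.F, 3.1% in FR104.Siro.F and 0% in Tac.Mtx.D30, Tac.Mtx.F and FR104.F, each against its D14 group. In Tac.Mtx.D30 against Tac.Mtx.D14, AHSP was at -2.19 ± 0.55 (limma, adjusted p = 0.489), a comparison with 439 genes at an unadjusted p under 0.05. There animal 21 is in the D14 group alone, and without animal 19 in D14 the AHSP change was -2.98 (adjusted p = 0.00991), without animal 20 it was -2.95 (adjusted p = 0.0264), and without animal 21 it was -0.65. None of the 10 comparisons of this change between regimens called a member, and the smallest adjusted p among these 40 tests was 0.63, with 1 unadjusted p under 0.05. There, 0% to 0.0847% of all genes were called, with 0.0847% for Auto against Bela.Siro, 0.0169% for Auto against FR104.Siro, 0.0339% for Tac.Mtx against Bela.Siro and 0.0254% for Bela.Siro against FR104.

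**Figure D2:**
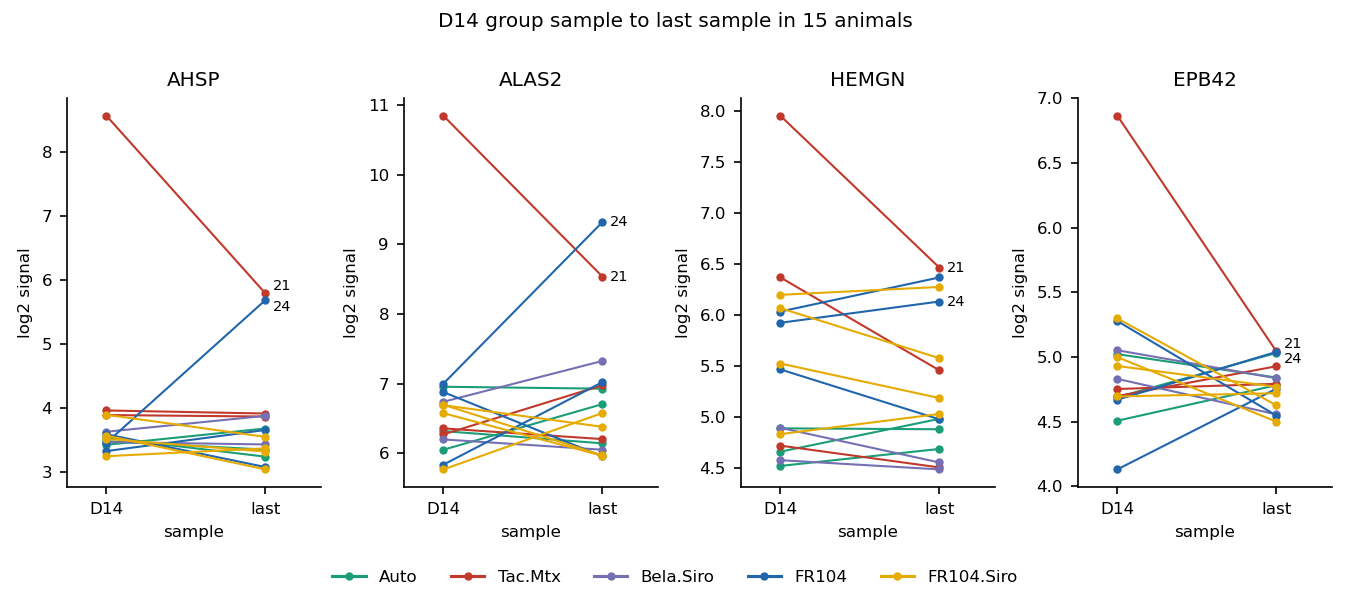
Log2 signal (vertical axes) in the D14 group sample and the last sample (horizontal axes) of the 15 animals that have both, 1 line for each animal, coloured by regimen. The lines of animal 21 fall and those of animal 24 rise for AHSP and ALAS2, while most other lines stay within 1 log2 unit.

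Animal by animal, the changes had no common direction. AHSP was lower in the last sample in 10 of 15 animals, ALAS2 and HEMGN in 9 and EPB42 in 8. The median changes were -0.05 for AHSP, -0.15 for ALAS2, -0.09 for HEMGN and -0.16 for EPB42. Animal 21 had the largest fall in each of the 4 genes, with changes of -2.77 for AHSP, -2.31 for ALAS2, -1.49 for HEMGN and -1.82 for EPB42. Animal 24 had the largest rise in AHSP (2.23) and ALAS2 (2.32), and its HEMGN and EPB42 changed by 0.21 and 0.37. In the 3 animals of Auto, which had no foreign graft, AHSP changed by -0.30 to 0.25 and ALAS2 by -0.18 to 0.65.

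The last groups of these 5 regimens were also compared with healthy controls. ALAS2 was higher by 0.70 ± 0.26 (limma, adjusted p = 0.0362), the 1 member of 4 that was called, where 27.3% of all genes were called and 13.9% were higher. The call was lost without the array of animal 24 in FR104.F (0.52, adjusted p = 0.118), of animal 42 in Bela.Siro.F (0.58, adjusted p = 0.127), of animal 21 in Tac.Mtx.F (0.57, adjusted p = 0.0964) or of animal 202 in Auto.D36 (0.67, adjusted p = 0.0555). It was also lost when the 2 probe sets were averaged (0.31, adjusted p = 0.0907). With both arrays of animal 21 left out of the limma fit it remained (0.57, adjusted p = 0.0188), where 26.2% of all genes were called. AHSP was at 0.41 ± 0.23 (adjusted p = 0.193), EPB42 at 0.05 ± 0.11 (adjusted p = 0.795) and HEMGN at -0.41 ± 0.27 (adjusted p = 0.297).

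For 11 animals a healthy array of the same animal gives a closer baseline, over 17 transplant arrays. ALAS2 was above the animal's own healthy level on 13 of the 17 arrays, with differences from -0.45 to 1.07 and a median of 0.33. AHSP and EPB42 were above it on 11 each, with medians of 0.11 and 0.06. HEMGN was above it on 7, and its differences were wide, from -1.49 to 1.13. The HEMGN signal of animal 202 was 6.36 when healthy and 4.89 and 4.88 in Auto.D14 and Auto.D36, and that of animal 49 was 6.49 when healthy and 5.26 and 5.3 in Bela.Siro.D14 and Bela.Siro.D30. Animal 201 went the other way, from 3.85, the lowest healthy value, to 4.66 and 4.98. Neither animal 21 nor animal 24 is among these 11.

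The rest of the red cell program was read from 6 lists with 49 tested genes in all. On the array of animal 21 in Tac.Mtx.D14, 28 of the 49 were above the healthy maximum, beside 11.3% of all genes, and their median lay 0.72 above the healthy median. XK and TMOD1, which were tested only through transplant arrays, are among the 28. On the arrays of animals 20 and 19 in the same group 2 genes each were above the healthy maximum. In the final sample of animal 21 there were 9, beside 16.1% of all genes, and in that of animal 24 in FR104.F 9, beside 6.6%. Arrays with no member above the healthy range had such genes too, with 8 on that of animal 20 in Tac.Mtx.F, beside 16.3% of all genes, and 6 on that of animal 22 in FR104.F, beside 12.9%. In the day 14 sample of animal 24 there was 1.

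**Figure D3:**
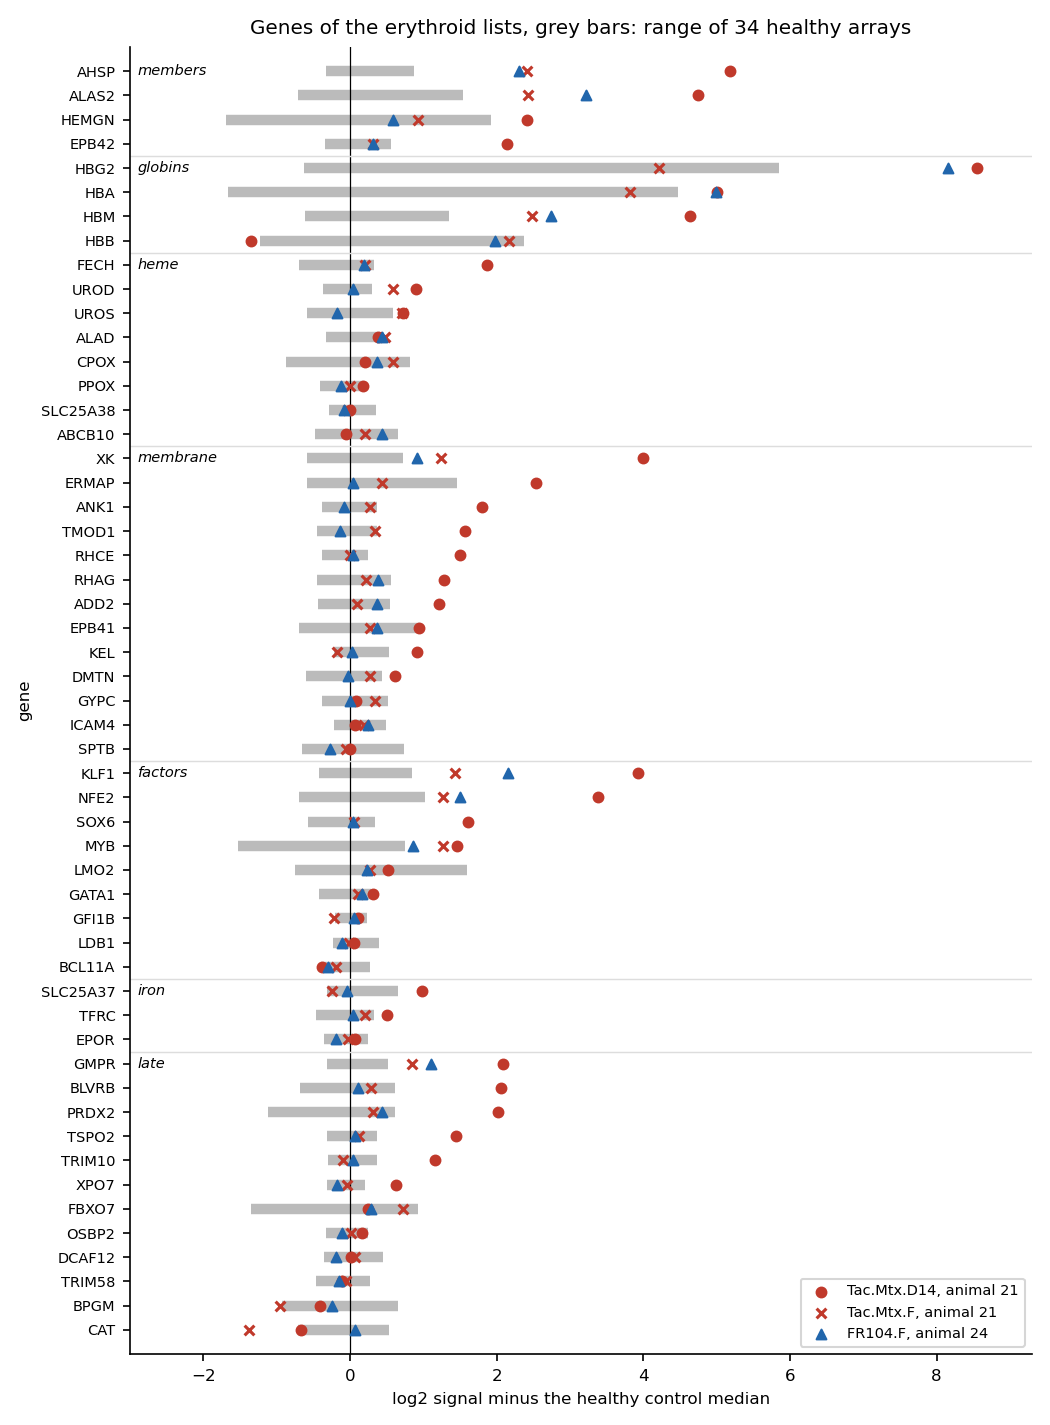
Log2 signal minus the median of the healthy controls (horizontal axis) for the members and the 49 other erythroid genes (vertical axis) on 3 arrays, with the range of the 34 healthy arrays as grey bars. The array of animal 21 in Tac.Mtx.D14 lies above the bar for 28 of the 49 genes and below it for HBB, and the other 2 arrays lie above it for 9 each.

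Of 9 factors that act in the program, 5 were above the healthy maximum on the array of animal 21 in Tac.Mtx.D14. KLF1 was at 8.04 (healthy maximum 4.95), NFE2, a partner in globin gene activation, at 8.35 (6.0), and SOX6, which acts in red cell maturation, at 6.21 (4.94). MYB was at 8.54 (7.83), and GATA1 at 5.85, next to its healthy maximum of 5.83. LMO2 (5.49), LDB1 (8.50), GFI1B (6.43) and BCL11A (4.28) were within the healthy range, BCL11A at its lower end. The final sample of animal 21 had KLF1 at 5.54 and that of animal 24 at 6.27, both above the healthy range, whereas SOX6 was within it in both (4.66 and 4.64). In heme synthesis 3 of 8 genes were above it: FECH, which inserts the iron, at 10.73 (9.18), UROD at 8.70 (8.10) and UROS at 8.75 (8.62). ALAD, CPOX, PPOX, SLC25A38 and ABCB10 were within the healthy range.

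Of the 4 globin genes, 3 were above the healthy maximum on the array of animal 21 in Tac.Mtx.D14. HBM was at 9.84 (healthy maximum 6.57), HBA, which encodes alpha globin, at 13.81 (13.27), and HBG2, a fetal type globin, at 11.98 (9.27). HBB, which encodes adult beta globin, was at 4.29 there, below the lowest healthy value of 4.41. It was also below that value, at 4.31, in animal 20 of the same group, where no member was above the healthy range. In the final sample of animal 21, HBM was above the healthy range (7.70), and HBA (12.62), HBG2 (7.64) and HBB (7.80) were within it. In that of animal 24, HBM (7.95), HBA (13.79) and HBG2 (11.58) were above it and HBB (7.62) was within it. Globin genes have near-identical copies, so a probe set may read more than the gene it is named for. HBA ranged over 7.14 to 13.27 and HBG2 over 2.80 to 9.27 in healthy animals alone, a far wider range than that of AHSP.

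Some genes of the red cell membrane and of late erythroblasts were high on the day 14 array of animal 21. On it, 9 of 13 membrane genes, XK and TMOD1 included, and 6 of 12 late genes were above the healthy maximum, beside 11.3% of all genes. Among them were XK (7.77, healthy maximum 4.49), which carries a blood group antigen, ERMAP (8.07, 7.0), ANK1, the ankyrin of the red cell (6.58, 5.14), BLVRB (9.61, 8.17) and PRDX2, a peroxidase abundant in red cells (9.95, 8.54). SPTB, EPB41, GYPC and ICAM4 of the membrane list were within the healthy range. So were BPGM, TRIM58, FBXO7, DCAF12, OSBP2 and CAT of the late list, with CAT (5.25) near its healthy minimum of 5.21. In the final samples of animals 21 and 24, ERMAP, ANK1, BLVRB and PRDX2 were within the healthy range, and XK was above it, at 5.01 and 4.68. EPB42, the member of the membrane skeleton, followed the same pattern. The difference between these arrays was not tested, since each is 1 array.

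As a group, Tac.Mtx.D14 had 11 of the 49 genes called higher than in healthy controls (limma), beside 1.4% of all genes, and none lower. They were XK (1.64 ± 0.32, adjusted p = 0.00217), KLF1 (1.51 ± 0.33), HBM (1.67 ± 0.43), NFE2, ANK1, RHAG, TMOD1, GMPR, TSPO2, UROD and MYB. XK and TMOD1 had healthy maxima of 4.49 and 4.295, below the level of 4.65 that a gene had to pass. Like AHSP, they were tested only through arrays on which they were high, so their calls are not read against the 1.4%. The list medians were 1.38 for the globins, 0.31 for membrane genes, 0.21 for the factors, 0.10 for heme synthesis, 0.15 for iron uptake and 0.08 for late genes, against 0.01 over all genes tested. Without animal 21 1 of the 49 was called, MYB, which dividing T cells express as well. In the 5 D14 groups together 3 of 49 were called higher, beside 8.89% of all genes: MYB (1.26 ± 0.19, adjusted p = 2.71e-06), ICAM4 (0.35 ± 0.08) and UROD (0.26 ± 0.08). From D14 to the last sample none was called. In the last groups against healthy controls 7 of 49 were higher, where 13.9% of all genes were, a share close to that of the list. Among them were HBG2 (1.63 ± 0.60, adjusted p = 0.0338), MYB (0.95 ± 0.20), FBXO7 (0.58 ± 0.18) and GMPR (0.44 ± 0.14), and LDB1 was lower (-0.22 ± 0.08).

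Markers of other blood cells moved on these arrays too. On the array of animal 21 in Tac.Mtx.D14, 4 of 12 monocyte and neutrophil genes were above the healthy maximum, with S100A8 at 11.14 (9.06) and FCN1 at 9.19 (8.08), and the mean of the list was 7.46 at its highest in this group and 6.77 at its lowest, against 4.68 to 7.22 in healthy animals. S100A8 was also at 10.28 in animal 20 of that group, where no member was above the healthy range. Platelet genes were above the healthy maximum in 4 of 9 cases, and PF4 and PPBP were within the healthy range. Of 7 genes of neutrophil precursors 1 was above it, CAMP, and MPO, ELANE and PRTN3 were within it, as were the progenitor genes KIT and GATA2. Of these markers none was at its highest of all 81 arrays there, whereas 21 of the 49 erythroid genes and all 4 members were, beside 1.51% of all genes tested. AHSP, XK and TMOD1 are counted here, but they were tested only through arrays on which they were high. They are therefore not read against this share. On the array of animal 24 in FR104.F, some genes for the granules of maturing neutrophils were high beside AHSP and ALAS2. Among them were LCN2 (7.70, healthy maximum 4.80), MMP8 (6.65, 3.70) and CAMP (9.01, 7.40). There 5 of the 7 neutrophil precursor genes were above the healthy maximum, beside 6.6% of all genes. MMP8, with a healthy maximum below 4.65, was tested only through transplant arrays and is not read against this share. The mean of the monocyte and neutrophil list on this array was 7.49. It was 7.31 on the array of animal 21 in Tac.Mtx.F. Their part in the result was not tested.

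T cell identity was checked with CD5, CD6, CD28 and BCL11B, since the CD3 genes themselves have no single-gene probe set. CD5 was at 10.66 on the array of animal 21 in Tac.Mtx.D14, within the healthy range of 10.24 to 11.34, and CD6, CD28 and BCL11B were within theirs. On the array of animal 24 in FR104.F, CD5 was at 10.12, just below that range, and the other 3 were within it. Of 6 genes of dividing cells, 5 were above the healthy maximum on the array of animal 21 in Tac.Mtx.D14 and 6 on that of animal 24 in FR104.F. Signals of the added hybridisation controls were 10.80 to 11.17 in Tac.Mtx.D14 and 10.82 to 10.99 in FR104.F, within the healthy range of 10.78 to 11.57. The 3' minus 5' signal of actin, a measure of RNA integrity, was 1.12 to 1.33 in Tac.Mtx.D14, inside the healthy range of 0.4299 to 3.83, and 0.0946 to 0.4253 in FR104.F, where all 3 arrays lay below the healthy minimum of 0.4299. All arrays of FR104.D14 (0.0171 to 0.3727) and of Auto.D36 (-0.3401 to -0.3028) also lay below that minimum. So did some arrays of Auto.D14, FR104.Siro.D14 and FR104.Siro.F. The part of this actin signal in the FR104.F values was not tested.

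Across all 81 arrays AHSP, ALAS2 and EPB42 rose and fell together, while HEMGN went largely its own way. Pearson's r was 0.88 for AHSP with ALAS2, 0.78 for AHSP with EPB42 and 0.74 for ALAS2 with EPB42, and 0.33 to 0.39 for HEMGN with the others. Without the 2 arrays of animal 21 these values were 0.73, 0.45 and 0.48, and 0.07 to 0.15 for HEMGN. These are descriptions over arrays that share animals, groups and batches.

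**Figure D4:**
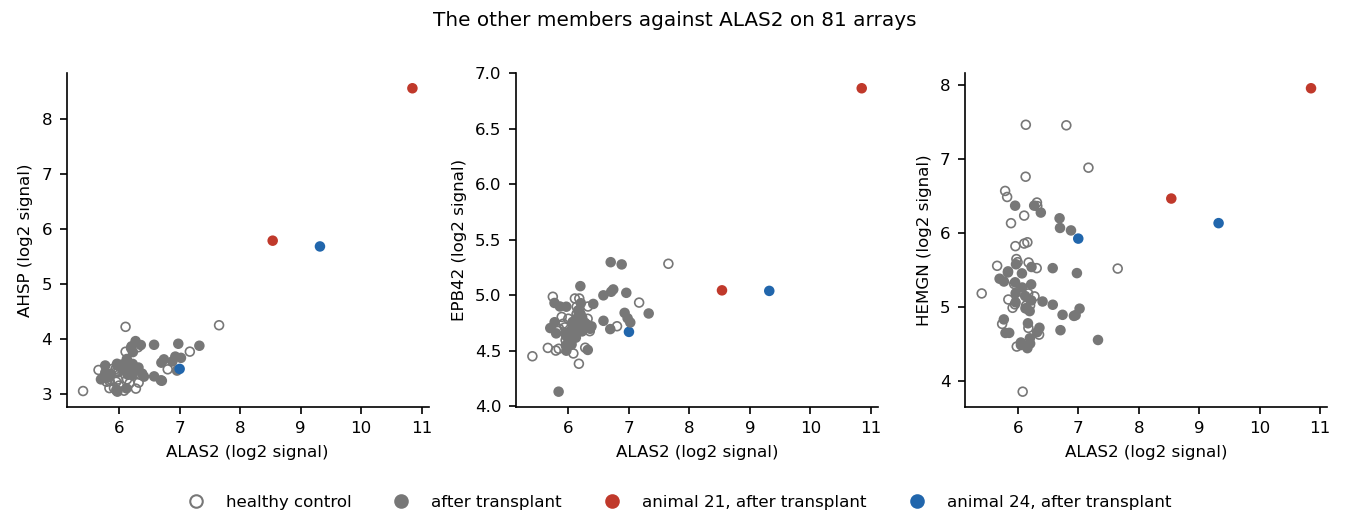
Log2 signal of AHSP, EPB42 and HEMGN (vertical axes) against that of ALAS2 (horizontal axes) on 81 arrays, with healthy controls as open circles. AHSP and EPB42 follow ALAS2 (r = 0.88 and 0.74), and HEMGN spreads over its whole range where ALAS2 is low (r = 0.39).

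Among the 34 healthy animals alone, the same 3 genes were related by Pearson's r. All healthy AHSP values lay below 4.65, the level for testing, and the healthy median of EPB42 was 4.73. The relations of these 2 genes are therefore limited by signals close to the floor of the array. For AHSP with EPB42, r was 0.62 (permutation test, p = 0.00011, adjusted over 6 pairs 0.00066) and Spearman's rho 0.60 (p = 0.00024, adjusted 0.00144), and r was 0.57 without the 2 animals farthest from the median of AHSP. For AHSP with ALAS2, r was 0.59 (permutation p = 0.00151, adjusted 0.00302) and rho 0.38 (p = 0.0252, adjusted 0.0503), with r at 0.48 without the 2 farthest. For ALAS2 with EPB42, r was 0.59 (permutation p = 0.00047, adjusted 0.00141) and rho 0.43 (p = 0.0122, adjusted 0.0366), but r was 0.29 without the 2 farthest, so that much of this relation rests on them. Within batches 2, 3 and 4 (10, 13 and 6 animals) r was 0.81, 0.48 and 0.28 for AHSP with EPB42, 0.87, 0.65 and -0.03 for AHSP with ALAS2, and 0.75, 0.56 and 0.72 for ALAS2 with EPB42, and batch 1 held 5 animals, too few for a value. The relation of AHSP with ALAS2 did not hold within batch 4. No pair with HEMGN passed, with r between 0.21 and 0.26. The healthy animal 60 had the highest healthy value of AHSP (4.25), ALAS2 (7.65) and EPB42 (5.28), with HEMGN at 5.52, near the healthy median.

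The 12 genes whose pattern over the 81 arrays was most like the mean of the standardised members were KLF1 (r = 0.93), HBM (0.88), PAQR9 (0.86), TMCC2 (0.85), ACSL6 (0.76), NFE2 (0.73), NFIX (0.71), HBG2 (0.71), IFIT1B (0.69), ERFE (0.64), TSPO2 (0.64) and XK (0.63). Among them are the factor KLF1, 2 globins and ERFE, the hormone by which erythroblasts lower hepcidin. Genes with LOC symbols were passed over in this ranking. PAQR9, ACSL6 and XK had healthy maxima below 4.65 and were tested only through transplant arrays on which they were high. Without the 2 arrays of animal 21, r was 0.79 for KLF1, 0.70 for HBM and 0.61 for PAQR9, and these kept the first 3 ranks, while r was 0.15 for TSPO2 and 0.0007 for XK. Among healthy animals alone, r was 0.70 for both KLF1 and HBM. Taken singly and without animal 21, AHSP had r = 0.81 with KLF1 and ALAS2 r = 0.85 with HBM, and HEMGN had r = 0.21 and 0.08 with the same genes.

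The probe sets of a gene did not always speak alike. For HEMGN both followed each other over the 81 arrays (r = 0.90), and the dimmer one was also above its healthy maximum on the array of animal 21 in Tac.Mtx.D14 (6.49 against 5.82). For ALAS2 they did not (r = -0.14), and the dimmer one, with a mean of 4.52, was at 4.49 on that array. The high ALAS2 signal of this array was thus read by 1 of its 2 probe sets.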

How the data were processed

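Signals of sorted T cells from 81 arrays were used as the authors deposited them, on a log2 scale after RMA in affy, per the submitters' processing notes (versions not given in the sources used here). They ran from 1.52 to 16.67, with array medians of 5.12 to 5.31. In healthy animals, 61.02% of the 52865 probe sets had a p above 0.95 when the labels' 4 batches were compared by an F test, and the step behind this is not stated.

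The gene table named 25330 probe sets, and the 361 with several genes were left out, which leaves 24969. Genes above 4.65, the 40th percentile of all values, on at least 2 arrays were tested, each through their probe set of highest mean. limma 3.58.1 (R 4.3.3, statmod 1.5.0) fitted every array at once, with a mean per group, the batch and a trended prior (62 residual degrees of freedom), for 35 comparisons, 2-sided, with Benjamini-Hochberg adjustment within each and a threshold of 0.05. Replicates are separate animals. Arrays of 1 animal were related: for the 15 animals with D14 and last arrays, deviations from group means correlated at 0.21 to 0.57, and the pairing comes from the animal numbers in the labels. Correlations in healthy animals have p-values from 100000 permutations. The fit was tested on simulated data. Named were the members, up to 4 genes from every list by adjusted p in the pooled comparisons, and list genes a count turns on. The 12 most alike genes without a LOC symbol were also named. Others were chosen after their values were seen. Members and lists were chosen with earlier results of these data known. Sequences and genome positions were not used here. The alternatives stand in the closing section; leaving out animal 21, and single arrays where a group was compared with healthy controls, was chosen after seeing the data. Hybridisation controls are 27 probe sets of added transcripts.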

Additional observations from a re-analysis of the deposited data

Results flagged for a closer look

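In FR104.Siro.D14, ALAS2 of animal 29 (5.77) lay further below the other 3 arrays (6.58 to 6.70) than the range of a group of 4 usually allows. Of 16 such groups tested over the 4 members this was the 1 that stood out, and chance gives about 1 in 20. The hybridisation controls, added transcripts that the comparisons do not use, were above the healthy maximum of 11.57 on 8 arrays: Auto.D14 animal 202 (12.33), Bela.Siro.F animal 38 (11.68), FR104.D14 animal 23 (12.03), FR104.Siro.D14 animals 26 (12.56), 29 (11.9992), 28 (12.17) and 27 (11.74), and FR104.Siro.F animal 29 (12.13). None of the 3 arrays with the highest AHSP and ALAS2 is among them, and animal 26 of FR104.Siro.D14, whose EPB42 was just above the healthy range, is.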

How the results depend on the processing

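No member's call against healthy controls or against D14 changed with renewed quantile normalization or the animal as a random replicate block. In the 3 pooled comparisons none changed without the filter or with the hybridisation controls as a covariate. These 2 settings were not run for single groups, so the calls in Tac.Mtx.D14 and Tac.Mtx.F were not tested against them. With the animal as a fixed block, run from D14 to last alone, no call changed. Without animal 21 the Tac.Mtx.D14 differences were 0.53 (AHSP), 0.18 (ALAS2), -0.0083 (EPB42) and -0.11 (HEMGN), AHSP in Tac.Mtx.F was 0.49 and its change from D14 to last turned to 0.0945. Without the batch term 4 more differences passed: AHSP (0.50) and ALAS2 (0.59) in the D14 groups and ALAS2 in Tac.Mtx.F (1.11) and FR104.F (1.30). With the mean of its probe sets ALAS2 no longer passed in Tac.Mtx.D14 (0.82) or the last groups (0.31), and its change from D14 to last was -0.0228. That change, called for no member, also turned sign in batch 4 alone (AHSP 0.13, HEMGN 0.013), in batch 3 alone (ALAS2 -0.12), with the hybridisation controls as a covariate (AHSP 0.0033) and without the 8 arrays where these controls were high (AHSP 0.0148, EPB42 0.0333). HEMGN in the D14 groups was 0.0326 without the autologous regimen. Leaving out 1 array at a time gave, in the D14 groups, 0.19 to 0.66 for AHSP, 0.29 to 0.75 for ALAS2 and 0.0632 to 0.28 for EPB42; in Tac.Mtx.D14, 0.53 to 2.86 for AHSP, 0.18 to 2.47 for ALAS2, -0.0083 to 1.08 for EPB42 and -0.11 to 1.51 for HEMGN; in Tac.Mtx.F, 0.49 to 1.45 for AHSP, 0.46 to 1.62 for ALAS2 and -0.67 to 0.31 for HEMGN; in FR104.F, -0.035 to 1.27 for AHSP; from D14 to last, -0.25 to 0.22 for AHSP and -0.0755 to 0.42 for ALAS2; and in the last groups 0.52 to 0.85 for ALAS2. A group of 2 then keeps 1 array, whose spread is taken to equal that of other groups. The 2042 genes called in the D14 groups became 380 in batch 3 alone, 557 in batch 4 alone, 3756 without the batch term and 1337 without the 8 arrays. The 295 genes called from D14 to last became 4 in batch 3 alone, 0 in batch 4 alone, 528 with the mean of probe sets, 46 with the groups compared alone, 485 after quantile normalization, 25 with the covariate, 7 without the 8 arrays, 101 to 664 with 1 array left out, and, with the replicate block, 0 as a fixed and 895 as a random term. The other 76 differences gave 699 values under the settings run for them, of which 52 changed sign and none changed a call. The cause of these shifts was not tested. AHSP, above the filter level on 3 arrays, is limited by signal over background.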

Other observations

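Platelet genes had a high array of their own. In the final sample of animal 20 in Tac.Mtx.F, 7 of 9 were above the healthy maximum, beside 16.3% of all genes. Among them were PPBP, a platelet chemokine, at 13.41 (healthy maximum 11.92), CLEC1B at 8.42 (6.63) and TREML1 at 8.82 (6.60). AHSP (3.92), HEMGN (5.46) and EPB42 (4.79) were within the healthy range on that array and ALAS2 was at 6.98. In the final sample of animal 21 of the same group, 0 of 9 platelet genes were above the healthy maximum, beside 16.1% of all genes.

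On the array of animal 21 in Tac.Mtx.D14, IFIT1B was at 12.31 against a healthy maximum of 8.46, and SLC16A1, a transporter of lactate, at 9.29 against 5.77. SLC16A1 was chosen after its values were seen.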
